A study of Homo sapiens with 30 samples.

Results

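The comparison described here asks how the transcriptional response to doxorubicin of OCI-LY3 cells differed from that of HT cells. Both are human cell lines grown from diffuse large B cell lymphoma, an aggressive tumour of mature B cells. For each gene the response difference is the change in OCI-LY3 (0.2 µM doxorubicin for 24 h minus untreated at 0 h) minus the same change in HT, on the scale of log2(FPKM + 1), where FPKM is a read count scaled by gene length and sequencing depth. A positive value means that the gene moved further upward, or less far downward, in OCI-LY3. The members are the genes that reached 1 FPKM in 3 or more of the 12 libraries used, 15138 of the 60656 genes in the table. The 12 libraries, of 30 in the series, fall into 4 groups of 3: OCI-LY3 doxorubicin, OCI-LY3 untreated, HT doxorubicin and HT untreated. Both lines are labelled wild type, were authenticated by STR profiling and grew in RPMI with 20% serum. The labels call the replicates biological triplicates, without saying whether they were separate cultures, so the p-values measure the spread between these libraries. Untreated cells were taken at 0 h alone, so effects of doxorubicin and of 24 h more in culture cannot be told apart.

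Doxorubicin is an anthracycline that slides between the bases of DNA and traps topoisomerase II on cut DNA, which leaves double-strand breaks. Cells with working p53 answer such breaks by inducing targets such as CDKN1A, and many cells also reduce MYC and ribosome production, change their cell cycle genes and switch on NF-kB. Which of these programmes a lymphoma line runs, and how far, differs between lines.

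Library depth, recovered from the FPKM values, ran from 24042778 to 27453170 reads in OCI-LY3 and from 16067405 to 38337869 reads in HT. The B cell markers MS4A1, CD79A, CD79B, PAX5 and CD22 averaged above 1 FPKM in every group. OCI-LY3 is commonly placed among lymphoma lines of activated B cell type, whose defining factor is IRF4. In the libraries labelled OCI-LY3, IRF4 had 0.26, 0.156 and 0.325 FPKM with doxorubicin and 0.039, 0.399 and 0.0732 FPKM untreated, too low to be tested, which goes against that class. Of the other 6 markers listed for activated B cell type, BATF averaged 3.9 FPKM in treated and 1.69 in untreated OCI-LY3, against at most 0.0671 in any HT library, and PIM2 averaged 9.97 FPKM in treated and 10 in untreated OCI-LY3, and 19.6 in treated and 15 in untreated HT. ENTPD1 averaged 1.05 FPKM in treated and 0.578 in untreated OCI-LY3, and 3.21 in treated and 2.84 in untreated HT, and CCND2, CYB5R2 and LIMD1 averaged below 1 FPKM in OCI-LY3. All 7 germinal center markers listed (BCL6, MME, LMO2, MYBL1, S1PR2, SERPINA9 and ITPKB) averaged at least 1 FPKM in both OCI-LY3 groups and 6 did in HT, where LMO2 averaged 0.0413 treated and 0.0292 untreated. Of the 7 activated B cell markers, 3 averaged at least 1 FPKM in treated and 2 in untreated OCI-LY3, and 3 in each HT group. Summed, they ran from 14.2 to 16.6 FPKM in treated and 11.6 to 14.1 in untreated OCI-LY3, and from 18.7 to 28.4 in HT. The 7 germinal center markers summed to 151 to 172 FPKM in treated and 254 to 323 in untreated OCI-LY3. In HT they summed to 260 to 292 FPKM treated and 388 to 399 untreated, so both sums were lower in OCI-LY3 than in HT. By presence at 1 FPKM, most listed markers thus go against the usual class of OCI-LY3, with LMO2 only just present (1.1 treated, 1.09 untreated). BATF, set against HT, goes with that class. The lines are called here by their labels alone. Tags in the library names (L4 and L5 for OCI-LY3, L6 for HT), whose meaning the labels do not give, differ fully between the lines and cannot be told apart from them. The tag L5 marks 1 treated and 1 untreated OCI-LY3 library.

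Among 15138 genes tested, 2639 had a higher response in OCI-LY3 (17.4%) and 1216 a lower one (8.03%), 25.5% in all (limma, adjusted p below 0.05). In OCI-LY3 6237 genes rose (41.2%) and 2313 fell (15.3%), against 3200 that rose (21.1%) and 1278 that fell (8.44%) in HT. Of the 2639 genes with a higher response, 1693 rose in OCI-LY3 without passing in HT, 687 rose in both lines and 143 fell in HT alone. Of the 1216 with a lower response, 588 fell in OCI-LY3 alone, 213 fell in both lines and 281 rose in HT alone. Opposite calls were rare: 83 genes rose in OCI-LY3 and fell in HT (0.548%) and 80 fell in OCI-LY3 and rose in HT (0.528%). Differences of at least 1 on the log2 scale numbered 330 upward and 154 downward.

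The balance between upward and downward calls depended on scaling. With the deposited FPKM values the median response difference of all genes was 0.11, the median response being 0.19 in OCI-LY3 and 0.07 in HT. Median-of-ratios scaling moved that median to -0.01 and gave 1698 higher and 2025 lower genes. Quantile normalization moved it to 0 and gave 1599 higher and 1544 lower genes. The share of calls that were higher was thus 68.5% as deposited, 45.6% and 50.9%. Under all 3 scalings, 1309 genes were called higher and 1071 lower. The response of each single line also depended on scaling. Its median was 0.018 in OCI-LY3 and 0.023 in HT with median-of-ratios scaling, and -0.003 and -0.004 with quantile normalization. Counts of genes that rose or fell in a line, above and in the lists below, are those of the deposited values. Differences below are to be read against the median of 0.11, and counts of called list members against the 25.5% of all genes called. Without both OCI-LY3 libraries tagged L5, 1634 genes were called higher and 650 lower, and of the 102 named genes tested 10 lost their call and 0 reversed.

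**Figure D1:**
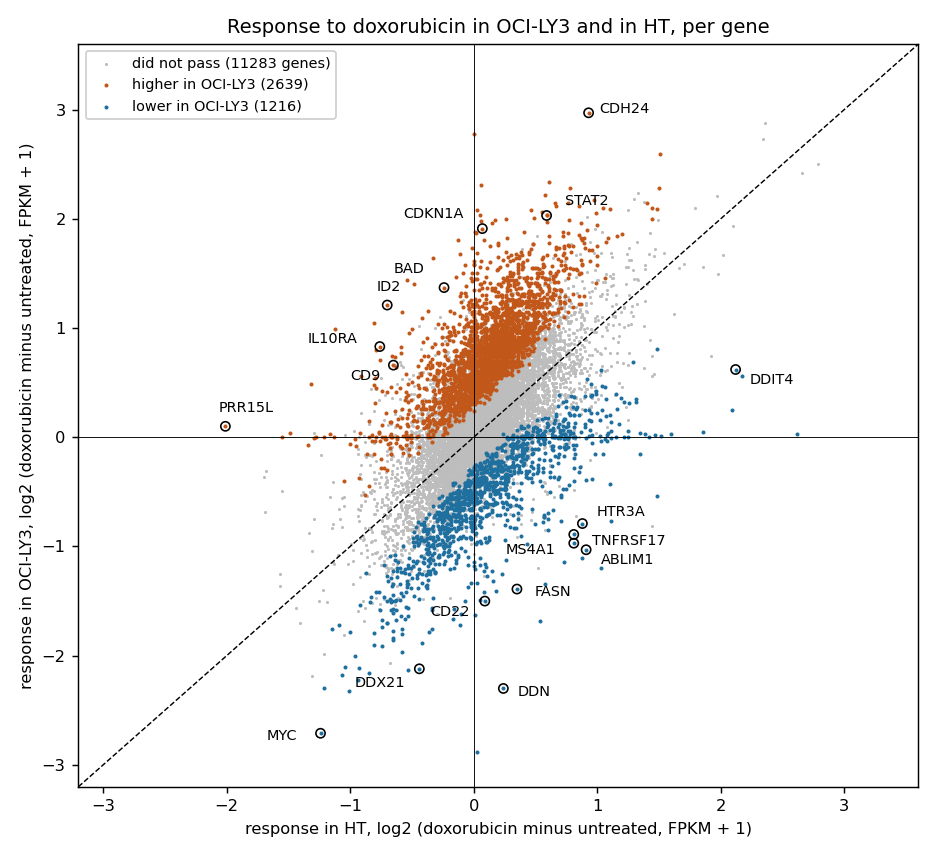
Response to doxorubicin in OCI-LY3 (vertical axis) against HT (horizontal axis), each as log2 change of FPKM + 1, for 15138 genes; the dashed line marks equal responses. The 2639 genes with a higher response in OCI-LY3 (orange) lie above this line and the 1216 with a lower one (blue) below it, and circled genes are named in the text.

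Among the 26 lists with at least 5 tested genes, the lowest median was that of ribosome biogenesis, the nucleolar work of transcribing, trimming and packing ribosomal RNA, which the transcription factor MYC promotes. Of 21 tested genes of this list, 19 had a lower response in OCI-LY3 and 0 a higher one, with a median difference of -0.92. All 21 fell in OCI-LY3 (median -1.43) and 17 fell in HT (median -0.59). Median-of-ratios scaling gave a list median of -1.08, and quantile normalization one of -0.95.

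MYC itself (chromosome 8, 127735434 to 127741434, plus strand, GRCh38) had 17.3, 18.0 and 18.9 FPKM in OCI-LY3 with doxorubicin, against 115, 126 and 131 untreated. In HT it had 16.1, 23.7 and 13.8 FPKM with doxorubicin, against 46.5, 48.6 and 33.7 untreated. MYC fell in both lines with no overlap between groups, to about the same treated level, and the OCI-LY3 libraries started higher. The response difference was -1.48 ± 0.25 (limma, adjusted p = 0.00213), where ± gives the SE here and for every difference below. Untreated OCI-LY3 exceeded untreated HT by 1.52 ± 0.17 on the log2 scale, and the treated lines differed by 0.05 (adjusted p = 0.826). None of the other 7 MYC network genes tested passed.

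DDX21, a nucleolar RNA helicase (chromosome 10, 68956128 to 68985073, plus strand), had 25.2, 44.4 and 29.2 FPKM in OCI-LY3 with doxorubicin and 151, 145 and 132 untreated. In HT its 3 libraries lay between 157 and 222 FPKM with doxorubicin and between 250 and 259 untreated. The OCI-LY3 groups lie far apart, while the HT response of -0.44 did not pass (adjusted p = 0.0839). Its difference of -1.68 ± 0.25 (limma, adjusted p = 0.00122) was the lowest of the list. NPM1, the histone chaperone nucleophosmin, had 196, 196 and 205 FPKM in treated OCI-LY3 against 508, 435 and 492 untreated, and 344, 331 and 322 in treated HT against 462, 439 and 475 untreated. NPM1 thus fell in both lines, further in OCI-LY3 (difference -0.80 ± 0.10, limma adjusted p = 0.000574). NOP16, a nucleolar protein, behaved alike, with a difference of -0.85 ± 0.13 (limma, adjusted p = 0.00127). NOP56 (-0.50, adjusted p = 0.138) and BOP1 did not pass, BOP1, a factor of the large subunit, falling by 0.84 in OCI-LY3 and by 0.85 in HT.

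MYC and its partner MAX bind the E-box CACGTG, so the promoters of 2 of these genes that hold it are shown. The windows run from 250 bases before to 50 after the annotated start (RefSeq, GRCh38.p14), at chr10:68956397-68956696 (plus strand) for DDX21 and chr2:28894417-28894716 (plus strand) for WDR43, a factor of the small-subunit processome. The sequences are in lower case with CACGTG in capitals.
DDX21: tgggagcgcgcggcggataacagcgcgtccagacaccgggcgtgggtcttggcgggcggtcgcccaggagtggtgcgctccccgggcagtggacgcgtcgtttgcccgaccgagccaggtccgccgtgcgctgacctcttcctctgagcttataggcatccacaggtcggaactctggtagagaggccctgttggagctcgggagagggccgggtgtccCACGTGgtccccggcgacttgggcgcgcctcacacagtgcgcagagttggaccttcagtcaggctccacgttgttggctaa
WDR43: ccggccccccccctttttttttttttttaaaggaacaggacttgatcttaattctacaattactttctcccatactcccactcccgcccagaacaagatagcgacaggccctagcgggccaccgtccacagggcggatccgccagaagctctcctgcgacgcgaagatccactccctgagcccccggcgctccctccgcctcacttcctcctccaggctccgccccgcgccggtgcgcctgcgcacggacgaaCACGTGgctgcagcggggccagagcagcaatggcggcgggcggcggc
Among 22 promoter windows of 17 matched ribosome biogenesis genes, 45.5% held CACGTG, which reads the same on both strands, against 7.26% of all 35116 windows. A match describes the letters in the window and does not show binding.

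In sterol synthesis, governed by the SREBP factors that SCAP escorts and INSIG proteins hold back, 7 of 28 tested genes rose in OCI-LY3 (median 0.14) and 22 rose in HT (median 0.79). The response was lower in OCI-LY3 for 9 genes and higher for 3, with a list median of -0.60. Under median-of-ratios scaling 15 were lower and 1 was higher, and under quantile normalization 12 and 1. Of 9 fatty acid synthesis genes, 5 had a lower and 3 a higher response in OCI-LY3, with a median of -0.62.

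DHCR7, the enzyme of the last step to cholesterol (chromosome 11, 71428193 to 71452868, minus strand), had 14.8, 12.4 and 15.6 FPKM in treated OCI-LY3 and 13.2, 12.3 and 15.4 untreated. HT had 27.5, 16.7 and 25.3 FPKM with doxorubicin and 9.84, 9.23 and 10.9 untreated. The OCI-LY3 groups overlap, and every treated HT library lies above every untreated one (difference -1.04 ± 0.23, limma adjusted p = 0.00768). SC5D, the sterol desaturase, had 7.53, 6.52 and 6.93 FPKM in treated OCI-LY3 against 5.47, 6.30 and 6.08 untreated, and rose to 6.25, 4.97 and 6.42 in treated HT against 2.89, 2.89 and 3.17 untreated. Its difference was -0.58 ± 0.13 (limma, adjusted p = 0.00921). HMGCS1, an early enzyme of the mevalonate pathway, passed narrowly (-0.80 ± 0.27, limma adjusted p = 0.0474), and did not pass without any 1 library other than HT untreated 3 or HT doxorubicin 2 (adjusted p up to 0.105). INSIG1 rose in HT by 1.23 and its difference of -0.94 did not pass without a replicate block (adjusted p = 0.0857, 95% interval -1.76 to -0.12). SCAP went the other way: it fell to 17.6, 19.0 and 18.2 FPKM in treated HT against 32.1, 30.5 and 26.5 untreated (difference 0.70 ± 0.12, limma adjusted p = 0.00249).

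FASN, fatty acid synthase (chromosome 17, 82078333 to 82098332, minus strand), moved in opposite directions. OCI-LY3 had 14.5, 13.9 and 14.7 FPKM with doxorubicin and 34.2, 40.4 and 43.8 untreated, while HT had 66.7, 51.2 and 50.3 with doxorubicin and 45.3, 43.5 and 41.4 untreated. The groups of neither line overlap, and the difference was -1.74 ± 0.16 (limma, adjusted p = 0.000174). ACLY, which makes the acetyl-CoA for both pathways, had 80.2, 75.9 and 77.6 FPKM in treated OCI-LY3 and 77.5, 75.9 and 77.8 untreated. In HT it rose to 118, 94.9 and 105 FPKM, against 60.1, 63.1 and 65.9 untreated (difference -0.72 ± 0.11, limma adjusted p = 0.00114). FADS2, a desaturase of polyunsaturated fatty acids, rose in OCI-LY3 by 1.34 and had at most 0.336 FPKM in HT. Its difference of 1.17 ± 0.17 (limma, adjusted p = 0.000923) did not pass on recovered reads (adjusted p = 0.209), where low genes are compared as ratios.

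The promoter of DHCR7 (chr11:71448344-71448643, minus strand, RefSeq, GRCh38.p14) is shown because SREBP factors act with the factor NF-Y, which binds the CCAAT box. The capitals mark CCAAT or its reverse complement ATTGG.
DHCR7: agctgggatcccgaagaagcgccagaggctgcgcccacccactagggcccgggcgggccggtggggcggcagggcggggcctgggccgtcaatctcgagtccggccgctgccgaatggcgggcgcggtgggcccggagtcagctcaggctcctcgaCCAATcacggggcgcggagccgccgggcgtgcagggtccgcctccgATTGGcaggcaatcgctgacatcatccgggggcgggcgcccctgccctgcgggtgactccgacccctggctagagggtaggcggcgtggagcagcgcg
CCAAT was found on either strand in 67.9% of 28 windows of 22 sterol genes and in 34.6% of all windows. The share was 86.4% for mitosis and for the unfolded protein response, and 62.9% for DNA replication, while B cell identity had 34.8%. A high share was thus not particular to sterol genes. The sterol element core CACCCCAC was found in 3.57% of the sterol windows and 2.79% of all windows.

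**Figure D2:**
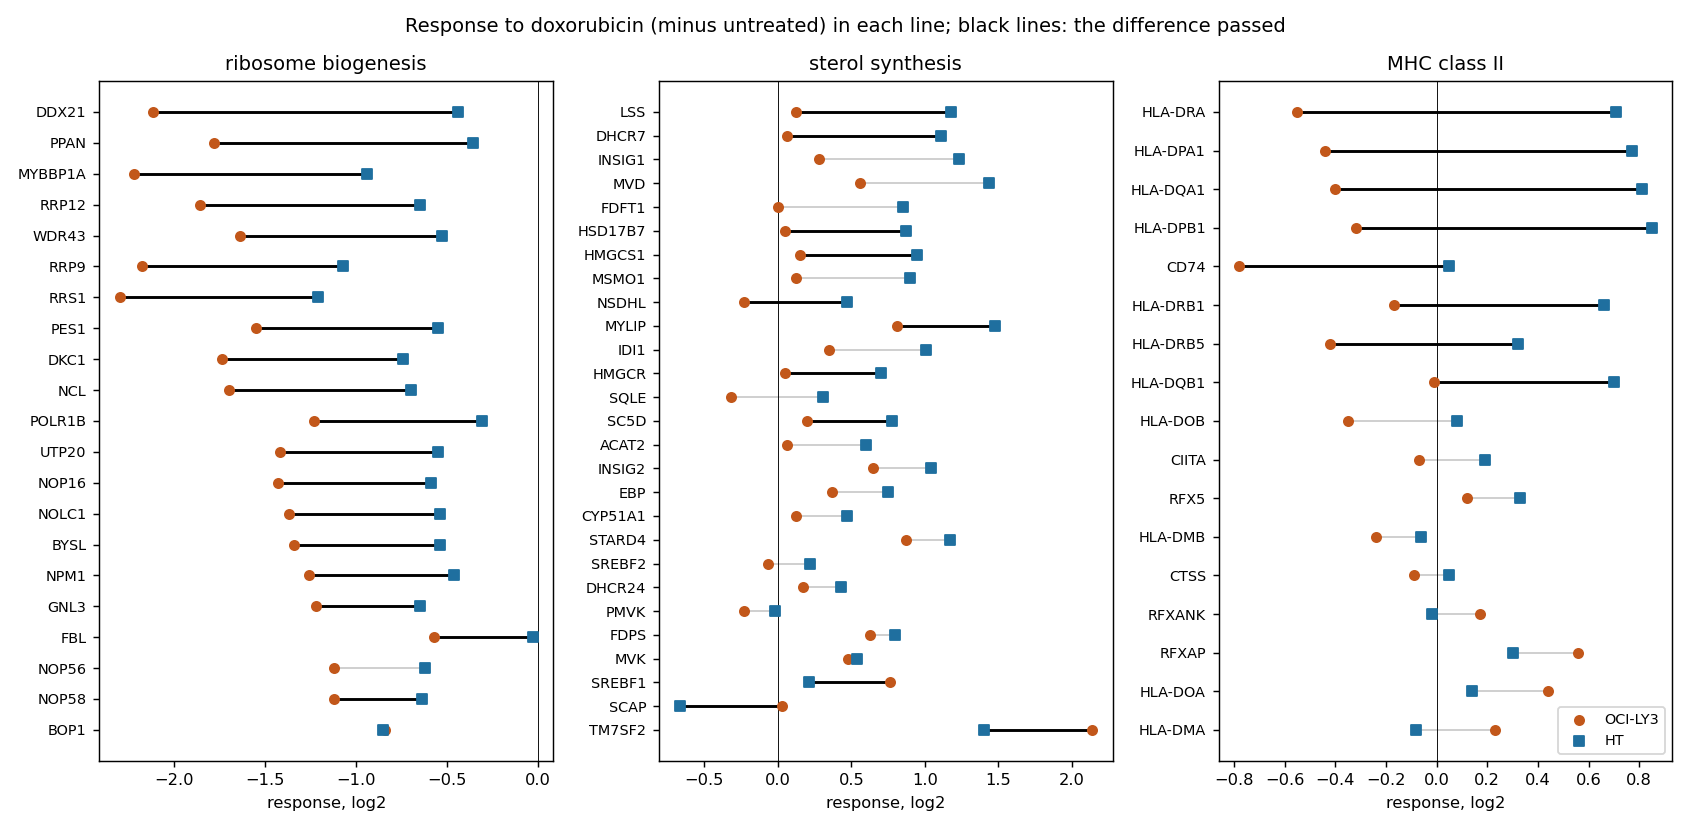
Responses in OCI-LY3 (circles) and HT (squares), as log2 change of FPKM + 1 with doxorubicin, for tested genes of 3 lists; black lines join genes whose difference passed. Ribosome biogenesis genes lie further left in OCI-LY3, most sterol genes lie near 0 in OCI-LY3 and to the right in HT, and the 7 MHC class II chains lie at or left of 0 in OCI-LY3 and right of it in HT.

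Of 27 tested glycolysis genes, 13 rose and 3 fell in OCI-LY3 (median 0.20), and 19 rose in HT (median 0.64). The response was lower in OCI-LY3 for 9 genes and higher for 1, with a median difference of -0.30. Of 4 transporters of glucose or lactate 3 were lower (SLC2A1, SLC2A3 and SLC16A1), as were HK2, LDHA and ENO1, and the flux regulators PFKFB3 and PFKFB4 did not pass.

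HK2, the hexokinase that commits glucose to the pathway, had 28.4, 22.4 and 26.2 FPKM in treated OCI-LY3 against 34.4, 34.3 and 30.6 untreated, and 21.2, 21.2 and 27.6 in treated HT against 13.5, 13.7 and 16 untreated. It fell in OCI-LY3 and rose in HT, with no overlap in either line, for a difference of -1.01 ± 0.16 (limma, adjusted p = 0.00189). LDHA, lactate dehydrogenase, had 233, 200 and 240 FPKM in treated OCI-LY3 and 248, 222 and 243 untreated, against 268, 234 and 274 in treated HT and 130, 145 and 200 untreated. LDHA rose in HT and did not pass in OCI-LY3, and the difference was -0.81 ± 0.20 (limma, adjusted p = 0.013). PFKM, the muscle-type phosphofructokinase, fell in OCI-LY3 by 0.65 (difference -0.51 ± 0.10, limma adjusted p = 0.00419). ENO2, an enolase best known from neurons, was the list's only higher gene, with 70.6, 47.0 and 59.2 FPKM in treated OCI-LY3 against 19.4, 20.8 and 17.9 untreated, and overlapping groups in HT (difference 1.34 ± 0.25, limma adjusted p = 0.00396). PFKFB4, a regulator of glycolytic flux, rose by 2.73 in OCI-LY3 and by 2.34 in HT, and its difference had a 95% interval of -0.84 to 1.63. PFKFB3, of the same family, rose by 0.57 and by 1.02 (interval -0.88 to -0.03, adjusted p = 0.106, or 0.0426 with median-of-ratios scaling).

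Among 16 genes of amino acid supply and ATF4 stress 7 had a lower and 0 a higher response in OCI-LY3 (median -0.55). Of 13 hypoxia genes 1 was lower and 0 higher, as of 15 genes of the unfolded protein response. Median-of-ratios scaling gave 8, 1 and 6 lower genes in that order, and quantile normalization 7, 1 and 1. DDIT4, the called hypoxia gene, also counts among the 7, and its -1.51 was the lowest difference of both lists. SLC7A5, an importer of large amino acids, had 31.3, 39.5 and 38.1 FPKM in treated OCI-LY3 against 96.9, 88.9 and 100 untreated, and 43.1, 50.6 and 48.1 in treated HT against 68.5, 66.3 and 59.3 untreated. It fell in both lines and further in OCI-LY3 (-0.93 ± 0.14, limma adjusted p = 0.00123). PSAT1, of serine synthesis, fell in OCI-LY3 by 0.69 and rose in HT by 0.60 (difference -1.29 ± 0.28, limma adjusted p = 0.0073). The pseudokinase TRIB3 fell in OCI-LY3 by 0.47 (-0.63 ± 0.12, limma adjusted p = 0.00425). DDIT4, the called gene of the hypoxia list and a brake on the growth kinase complex mTORC1, had 53.7, 37.1 and 51.5 FPKM in treated OCI-LY3 against 27.4, 27.7 and 36.1 untreated, and rose in HT to 116, 79.4 and 141 against 16.2, 22.2 and 39.4 untreated (difference -1.51 ± 0.41, limma adjusted p = 0.0217). XBP1, a factor of the unfolded protein response, had a difference of -0.58 ± 0.16 (limma, adjusted p = 0.024), and did not pass without HT untreated 1 or HT untreated 3 (adjusted p up to 0.0549).

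In the tricarboxylic acid cycle 5 of 20 genes had a lower and 2 a higher response in OCI-LY3 (median -0.06). Citrate synthase, CS, fell in OCI-LY3 to 73.8, 73.2 and 73.3 FPKM against 106, 102 and 107 untreated, and had 56.5, 56.6 and 57.0 in treated HT against 58.4, 55.9 and 57.2 untreated. This small difference had a small error (-0.49 ± 0.07, limma adjusted p = 0.000766). SDHB, of complex II, fell in OCI-LY3 and rose in HT (-0.59 ± 0.12), and IDH3A fell in OCI-LY3 (-0.57 ± 0.13). IDH2, the mitochondrial isocitrate dehydrogenase, rose in both lines, by 2.88 and 2.36, and the difference of 0.52 did not pass (adjusted p = 0.199, interval -0.10 to 1.13). Of 14 NRF2 and redox genes 4 were lower and 2 higher. Ferritin heavy chain FTH1 rose in both lines and further in OCI-LY3 (0.54 ± 0.11), and the cystine importer SLC7A11 rose in HT by 0.46 (difference -0.73 ± 0.16).

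**Figure D3:**
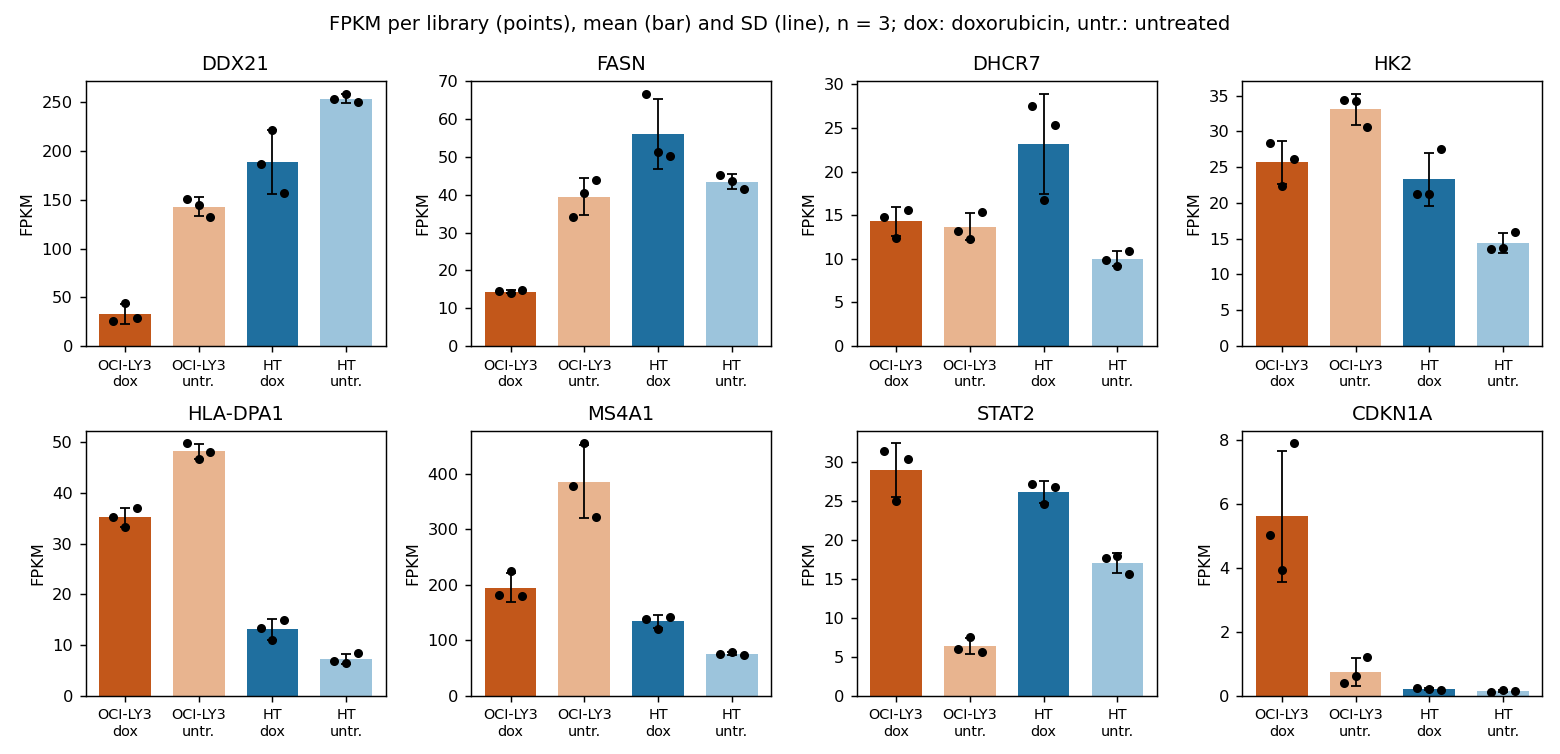
FPKM of 8 genes in each of the 12 libraries (points), with the group mean (bar) and SD (line, n = 3); in each panel OCI-LY3 doxorubicin, OCI-LY3 untreated, HT doxorubicin and HT untreated run from left to right. HK2, HLA-DPA1 and MS4A1 fall with treatment in OCI-LY3 and rise in HT, FASN does the same, and CDKN1A stays at or below 0.229 FPKM in every HT library.

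MHC class II molecules show peptides to helper T cells, and B cells make them through the regulator CIITA. All 7 class II chain genes tested had a lower response in OCI-LY3, as did the invariant chain CD74, while none of the 4 class II transcription factors passed. Of the 17 genes of the class II list 8 were lower and 0 higher (median -0.42, or -0.56 and -0.49 under the other scalings). Among 16 class I genes 4 were higher and 0 lower, with a median of 0.15. The share called, 25.0%, was near the 25.5% of all genes. HLA genes are highly polymorphic and share sequence, so reads may be lost or exchanged between them in a way these values do not show.

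HLA-DQA1 (chromosome 6, 32628179 to 32647062, plus strand) had 35.0, 41.0 and 42.5 FPKM in treated OCI-LY3 and 54.8, 58.0 and 44.6 untreated. HT had 8.04, 7.81 and 7.79 FPKM with doxorubicin and 3.97, 3.73 and 4.55 untreated. It fell in the line that had more and rose in the line that had less, with no overlap in either (difference -1.20 ± 0.15, limma adjusted p = 0.000523). HLA-DPA1 had 35.3, 33.3 and 37.1 FPKM in treated OCI-LY3 against 49.8, 46.7 and 48.1 untreated, and 13.3, 10.9 and 15.0 in treated HT against 6.89, 6.4 and 8.42 untreated. The pattern matches that of HLA-DQA1 (-1.21 ± 0.16, limma adjusted p = 0.00063). The log2 gap between OCI-LY3 and HT was 2.19 after treatment and 3.39 untreated for HLA-DQA1, and 1.37 after treatment and 2.59 untreated for HLA-DPA1. CD74, which occupies the class II groove until peptide loading, had 344, 357 and 344 FPKM in treated OCI-LY3 against 585, 643 and 576 untreated, with overlapping HT groups at 270, 283 and 277 against 285, 276 and 242 (difference -0.84 ± 0.11, limma adjusted p = 0.00057). CIITA had 6.15, 5.92 and 5.66 FPKM in treated OCI-LY3 and 6.01, 7.43 and 5.42 untreated, against 5.22, 5.08 and 3.92 in treated HT and 4.43, 4.11 and 3.55 untreated. The groups overlap in both lines, and the difference of -0.25 had a 95% interval of -0.62 to 0.12.

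Class II promoters carry a Y box that holds CCAAT, and the reference promoter of HLA-DQA1 (chr6:32637156-32637455, plus strand, RefSeq, GRCh38.p14) is shown for it, with CCAAT or ATTGG in capitals.
HLA-DQA1: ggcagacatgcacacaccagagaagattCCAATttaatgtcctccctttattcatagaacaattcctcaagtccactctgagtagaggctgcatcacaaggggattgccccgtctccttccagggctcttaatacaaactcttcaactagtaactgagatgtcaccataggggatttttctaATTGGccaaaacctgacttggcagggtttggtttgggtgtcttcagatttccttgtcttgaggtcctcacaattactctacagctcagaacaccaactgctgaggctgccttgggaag
Either form was present in 57.9% of 19 windows of 14 class II genes, against 34.6% of all windows. Lists without a Y box had similar shares, such as 62.9% for DNA replication and 60.0% for break repair, while B cell identity had 34.8%.

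Among the class I genes TAP1, which pumps peptides into the endoplasmic reticulum, had 9.01, 10.4 and 10.4 FPKM in treated OCI-LY3 against 3.64, 3.33 and 3.39 untreated, and 13.2, 15.5 and 13 in treated HT against 9.94, 9.55 and 9.46 untreated. It rose in both lines, further in OCI-LY3 (0.82 ± 0.11, limma adjusted p = 0.000834). PSMB9, a subunit of the immunoproteasome, rose in OCI-LY3 by 1.51 (difference 1.22 ± 0.20, limma adjusted p = 0.00206), and ERAP1, which trims peptides, rose there by 0.52 (difference 0.61 ± 0.10). TAP1 and PSMB9 overlap on opposite strands (chromosome 6, 32845209 to 32853978 and 32844136 to 32859585), and the strand setting of the counting is not given in the sources used here, so their reads may not be separable. More widely, the spans of 42 of the 103 named genes overlap a tested gene on the opposite strand. The spans of 13 overlap a tested gene on the same strand, where a strand setting does not separate reads. Among these are S1PR2 with DNMT1, ENO2 with LRRC23 and FADS2 with FEN1.

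Of 18 tested interferon-stimulated genes 6 had a higher and 0 a lower response in OCI-LY3 (median 0.34). The difference was above 0 for 10 of the 18, against 9314 of all 15138 genes. Leaving out 1 library at a time moved the list median between 0.10 and 0.40. The members did not move as one: the 6 tested sensors of the list had a median difference of -0.28, with 0 called. With median-of-ratios scaling there were 6 and 2, and with quantile normalization 6 and 1. A further 12 genes of the list stayed below the level needed for a test, among them MX1, IFI44L and IFIT1. IFIT1 was highest in treated HT, at 0.513, 0.379 and 0.544 FPKM. STAT2, a subunit of the complex that carries the interferon signal (chromosome 12, 56341597 to 56360155, minus strand), had 31.5, 25.1 and 30.4 FPKM in treated OCI-LY3 against 5.96, 7.53 and 5.60 untreated. In HT it had 27.2, 24.6 and 26.9 FPKM against 17.7, 18.0 and 15.7 untreated. STAT2 rose in both lines and reached about the same level (difference 1.44 ± 0.16, limma adjusted p = 0.000314; treated lines 0.13 apart, adjusted p = 0.31). IFI35 rose in both lines and further in OCI-LY3 (0.98 ± 0.19, limma adjusted p = 0.004). BST2, which tethers budding viruses, had 105, 119 and 119 FPKM in treated OCI-LY3 against 92.6, 97.7 and 89.0 untreated, and fell in HT to 75.4, 88.7 and 69.4 against 111, 94.7 and 114 untreated (difference 0.74 ± 0.14, limma adjusted p = 0.00414).

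The element bound by interferon factors has the core TTTCNNTTT, searched on both strands, and the promoters of 2 of the higher genes that hold it are shown with it in capitals: BST2 at chr19:17405581-17405880 (minus strand), with 2 overlapping matches, and ISG20, an RNA exonuclease, at chr15:88638766-88639065 (plus strand), both from RefSeq on GRCh38.p14.
BST2: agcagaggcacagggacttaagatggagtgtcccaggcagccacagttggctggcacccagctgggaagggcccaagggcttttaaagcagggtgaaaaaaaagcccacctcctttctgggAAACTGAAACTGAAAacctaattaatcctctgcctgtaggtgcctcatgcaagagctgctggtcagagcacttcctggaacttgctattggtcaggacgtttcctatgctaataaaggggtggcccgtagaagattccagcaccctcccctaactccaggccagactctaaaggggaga
ISG20: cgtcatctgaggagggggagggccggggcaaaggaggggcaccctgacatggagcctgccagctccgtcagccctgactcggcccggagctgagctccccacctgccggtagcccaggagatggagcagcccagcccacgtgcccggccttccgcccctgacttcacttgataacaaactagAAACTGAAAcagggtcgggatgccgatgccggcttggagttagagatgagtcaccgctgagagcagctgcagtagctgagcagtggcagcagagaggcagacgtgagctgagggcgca
The core was found in 69.0% of 29 windows of 22 interferon-stimulated genes, in 52.9% of 17 windows of 13 class I genes and in 10.5% of all windows.

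Of 23 B cell identity genes 17 fell in OCI-LY3 and 10 in HT. The difference was lower in OCI-LY3 for 7 genes and higher for 3 (median -0.22), and with either other scaling 0 genes were higher. The lower ones included the surface proteins MS4A1 and CD22, while the factors PAX5, EBF1 and POU2F2 fell in both lines without passing the difference. In bulk RNA, fewer cells with a gene and less of its RNA per cell cannot be told apart.

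MS4A1, which encodes CD20, the target of rituximab (chromosome 11, 60455752 to 60470760, plus strand), lay between 180 and 225 FPKM in treated OCI-LY3 against 379, 455 and 323 untreated. In HT it had 139, 121 and 142 FPKM with doxorubicin against 75.8, 78.9 and 73.3 untreated. It fell in OCI-LY3 and rose in HT without overlap, and the log2 gap between the lines narrowed to 0.54 after treatment, against 2.31 untreated (difference -1.78 ± 0.18, limma adjusted p = 0.000237). CD22, an inhibitory receptor of B cells, had 56.2, 71.4 and 52.1 FPKM in treated OCI-LY3 against 176, 200 and 139 untreated, and overlapping groups in HT at 89.6, 93.3 and 87.7 against 86.0, 91.0 and 78.3 (difference -1.59 ± 0.19, limma adjusted p = 0.00051). FCRLA, an Fc receptor-like protein inside B cells, followed CD22 (-0.82 ± 0.12, limma adjusted p = 0.00107). TNFRSF17, the receptor BCMA of late B cells, fell in OCI-LY3 by 0.89 and rose in HT by 0.81 (-1.70 ± 0.32, limma adjusted p = 0.00367).

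Of 16 germinal center genes 5 were lower and 2 higher (median -0.27). RGS13, a regulator of G protein signalling, fell in OCI-LY3 by 1.41 (difference -1.59 ± 0.17, limma adjusted p = 0.000266), and S1PR2, which keeps B cells inside the germinal center, fell there by 0.82 (-0.88 ± 0.14). BCL6, the master repressor of the germinal center, had 23.0, 23.0 and 22.8 FPKM in treated OCI-LY3 against 79.4, 83.7 and 71.4 untreated, and 53.2, 63.5 and 67.1 in treated HT against 127, 128 and 138 untreated. It fell in both lines, further in OCI-LY3 (-0.63 ± 0.12, limma adjusted p = 0.00466). Of 11 activated B cell genes 2 were higher and 1 lower, 27.3% called against 25.5% of all genes. The kinase gene PIM1 rose in OCI-LY3 to 14.4, 13.7 and 14.5 FPKM against 6.54, 5.84 and 7.04 untreated, with HT at 2.10, 1.63 and 3.16 against 2.55, 1.91 and 2.21 (1.02 ± 0.20, limma adjusted p = 0.00498). BATF, an AP-1 family factor, rose in OCI-LY3 by 0.87 and had at most 0.0671 FPKM in HT (0.84 ± 0.14), and CYB5R2 rose in HT by 0.62 and had at most 0.233 FPKM in OCI-LY3 (-0.55 ± 0.12); on recovered reads neither passed (adjusted p = 0.847 and 0.326). Among 9 AP-1 and EGR factors 3 were lower and 0 higher. IER2, an immediate-early gene, fell in OCI-LY3 by 0.78 and rose in HT by 0.56 (-1.34 ± 0.25), FOSB rose in HT by 0.96 (-1.01 ± 0.15), and EGR1 fell in OCI-LY3 by 0.63 (-0.99 ± 0.22).

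Of 25 tested p53 targets 14 rose in OCI-LY3 and 9 in HT. The difference was higher in OCI-LY3 for 5 and lower for 2, with a median of -0.04, 28.0% called against 25.5% of all genes. Median-of-ratios scaling gave 4 higher and 3 lower, and quantile normalization 2 and 3. CDKN1A, the cell cycle inhibitor p21 (chromosome 6, 36676460 to 36687339, plus strand), had 5.03, 3.93 and 7.90 FPKM in treated OCI-LY3 against 0.395, 0.62 and 1.21 untreated. In HT it had 0.229, 0.218 and 0.17 FPKM against 0.123, 0.167 and 0.163 untreated. It rose in OCI-LY3 and stayed near the floor in HT, a difference of 1.84 ± 0.29 (limma, adjusted p = 0.00154). FDXR, a mitochondrial reductase, had 9.99, 6.80 and 8.55 FPKM in treated OCI-LY3 against 2.89, 2.55 and 3.73 untreated (difference 0.96 ± 0.20, limma adjusted p = 0.00622), and its HT response of 0.25 did not pass. TP53I3, a quinone oxidoreductase, rose in both lines, by 1.29 and 0.85 (difference 0.45 ± 0.10, limma adjusted p = 0.00762, or 0.186 under quantile normalization). MDM2, the ubiquitin ligase that restrains p53, had 7.55, 9.27 and 6.80 FPKM in treated OCI-LY3 against 8.51, 10.3 and 8.70 untreated, and 5.60, 5.97 and 5.54 in treated HT against 5.96, 6.48 and 6.35 untreated, so it passed in neither line (difference interval -0.40 to 0.23).

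Among 16 apoptosis regulators 5 were higher and 1 was lower (median 0.27), with 3 of 7 BH3-only genes and 2 of 7 survival genes among the higher ones. BCL2, the survival gene (chromosome 18, 63123346 to 63320128, minus strand), had 9.21, 9.58 and 7.54 FPKM in treated OCI-LY3 against 23.4, 24.0 and 18.2 untreated, and stayed at 0.349, 0.308 and 0.251 in treated HT against 0.30, 0.233 and 0.158 untreated. BCL2 fell in OCI-LY3 and was low in every HT library (difference -1.30 ± 0.16, limma adjusted p = 0.000529). BCL2L1, which encodes BCL-XL, had 22.3, 19.2 and 23.0 FPKM in treated OCI-LY3 against 11.4, 12.2 and 12.9 untreated, with overlapping HT groups at 20.9, 17 and 21.4 against 22.1, 18.0 and 21.8 (difference 0.83 ± 0.15, limma adjusted p = 0.00328). BAD, a BH3-only antagonist of BCL2 and BCL-XL, had 26.8, 22.6 and 30.1 FPKM in treated OCI-LY3 against 7.40, 7.81 and 15.0 untreated, and 16.5, 14.7 and 16.4 in treated HT against 19.7, 18.7 and 18.3 untreated (difference 1.61 ± 0.28, limma adjusted p = 0.00279). BCL2 and BCL2L1 therefore moved in opposite directions in OCI-LY3.

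Of 29 DNA replication genes 23 rose in OCI-LY3 and 14 in HT, and 9 had a higher response in OCI-LY3 and 0 a lower one (median 0.22, or 0.05 and 0.36 under median-of-ratios and quantile scaling, with 5 higher and 1 lower, and 12 and 0). Of 5 genes of nucleotide supply 4 were among the higher ones. DNA ligase gene LIG1 rose in OCI-LY3 by 0.84 (difference 0.74 ± 0.12, limma adjusted p = 0.00189), and CDC45, of the replicative helicase, by 0.82 (0.50 ± 0.09). Of 24 mitosis genes 3 were higher and 0 lower, 12.5% called against 25.5% of all genes. FOXM1, a factor that drives mitotic genes, had 77.6, 84.2 and 73.2 FPKM in treated OCI-LY3 against 46.4, 34.6 and 44.3 untreated, and 35.2, 36.1 and 34.2 in treated HT against 32.3, 31.9 and 30.6 untreated (0.75 ± 0.14, limma adjusted p = 0.00332). The kinesins KIF2C and KIF11 rose in OCI-LY3 by 0.69 and 0.39; the difference of KIF11 had an adjusted p of 0.0209, and 0.157 with median-of-ratios scaling.

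Among 27 break repair genes 4 were higher and 2 lower (median 0.12), 22.2% called against 25.5% of all genes. With median-of-ratios scaling 1 was higher and 4 lower (median -0.03), and with quantile normalization 2 and 2. BRCA1, of homologous recombination, rose in both lines, by 1.06 and 0.58 (0.48 ± 0.10, limma adjusted p = 0.00683). LIG4 and XRCC4, partners in end joining, both had lower responses in OCI-LY3, by -0.71 ± 0.13 and -0.69 ± 0.16. TOP2B, a target of doxorubicin, fell in OCI-LY3 to 43.9, 41.9 and 38.5 FPKM against 65.6, 55.5 and 58.0 untreated, with overlapping HT groups at 96.8, 93.6 and 126 against 86.8, 93.4 and 94.9 (-0.70 ± 0.15, limma adjusted p = 0.00776). TOP2A, the proliferation-linked isoform, did not pass (0.54, adjusted p = 0.0537, interval 0.13 to 0.94; 0.0204 with quantile normalization). Of the 12 genes of drug transport and targets, the only other one to pass was the pump gene ABCC4 (-0.44 ± 0.11).

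The series title names non-canonical NF-kB signalling, the arm in which the kinase NIK (MAP3K14) leads to processing of p100, encoded by NFKB2, into a partner of RELB. Of 11 tested components 0 passed the response difference in either direction (limma, without a replicate block), 4 had an unadjusted p below 0.05, and 0 passed with either other scaling; 38.5% of all genes had an unadjusted p below 0.05. Of the 11 genes, 7 rose in OCI-LY3 and 4 in HT, and the median difference was 0.25.

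NFKB2 (chromosome 10, 102394110 to 102402529, plus strand) had 21.0, 22 and 21.1 FPKM in treated OCI-LY3 against 4.73, 6.59 and 5.21 untreated, and 16.7, 19.8 and 13.5 in treated HT against 6.55, 6.66 and 4.99 untreated. The groups of both lines lie apart, and the difference was 0.47 with a 95% interval of 0.03 to 0.92 (adjusted p = 0.111, without a replicate block). With a replicate block NFKB2 passed (limma, adjusted p = 0.02 within each line and 0.0384 shared by both lines). RELB had 23.6, 22.6 and 24.8 FPKM in treated OCI-LY3 against 5.92, 7.29 and 7.99 untreated, and 12, 10.1 and 12.7 in treated HT against 5.24, 4.54 and 3.07 untreated (0.35, interval -0.12 to 0.81). BIRC3, which with TRAF3 marks NIK for destruction, rose by 1.07 in OCI-LY3 and by 1.01 in HT (0.06, interval -0.53 to 0.64). MAP3K14 rose in OCI-LY3 by 0.52 and its HT response of 0.27 did not pass, yet the difference of 0.25 had an interval of -0.26 to 0.77. TRAF3 passed in neither line (0.02, interval -0.33 to 0.38). A missed threshold does not show equal responses.

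Of 20 canonical NF-kB genes 2 were higher and 1 lower, and of 12 NF-kB targets 3 were higher and 0 lower. The shares called, 15.0% and 25.0%, did not exceed the 25.5% of all genes. IRAK4, a kinase below Toll-like receptors, rose in OCI-LY3 to 16.6, 16.8 and 14.1 FPKM against 9.90, 9.87 and 8.30 untreated (difference 0.59 ± 0.14, limma adjusted p = 0.00975). NFKB1, the p105 gene, rose in HT by 0.35, and its difference of -0.40 did not pass without OCI-LY3 untreated 1 or 2, OCI-LY3 doxorubicin 1 or 3, HT untreated 1, 2 or 3, or HT doxorubicin 2 (adjusted p up to 0.0892). CYLD, a deubiquitinase that damps the pathway, rose in both lines (difference 0.40 ± 0.12, limma adjusted p = 0.0343). This difference did not pass under either other scaling (adjusted p = 0.0974 and 0.298), or without OCI-LY3 untreated 1 or 3, OCI-LY3 doxorubicin 1 or 2, HT untreated 2 or 3, or HT doxorubicin 1 or 2 (adjusted p up to 0.0774). TRAF1, an adaptor induced by NF-kB, had 14.9, 7.78 and 11 FPKM in treated OCI-LY3 against 3.32, 3.56 and 2.28 untreated, and 21.6, 22.5 and 19.7 in treated HT against 13.9, 13.6 and 12.7 untreated (0.94 ± 0.26, limma adjusted p = 0.0228; 0.0761 with quantile normalization and 0.0514 without HT untreated 1). PLAU, urokinase, rose in OCI-LY3 by 1.24 and was at most 0.0354 FPKM in HT (1.22 ± 0.14; adjusted p = 0.287 on recovered reads). BCL2A1, a survival gene, had 5.79, 6.42 and 7.71 FPKM in treated OCI-LY3 against 1.97, 3.13 and 1.36 untreated, and 0.372, 0.53 and 0.649 in treated HT against 0.11, 0.0922 and 0.0778 untreated. Its difference of 0.84 ± 0.25 (limma, adjusted p = 0.0282) did not pass under the other scalings (adjusted p = 0.0554 and 0.057) or without OCI-LY3 untreated 1, OCI-LY3 doxorubicin 3, HT untreated 1 or 2 or HT doxorubicin 1. On recovered reads it was -0.58 (adjusted p = 0.562).

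**Figure D4:**
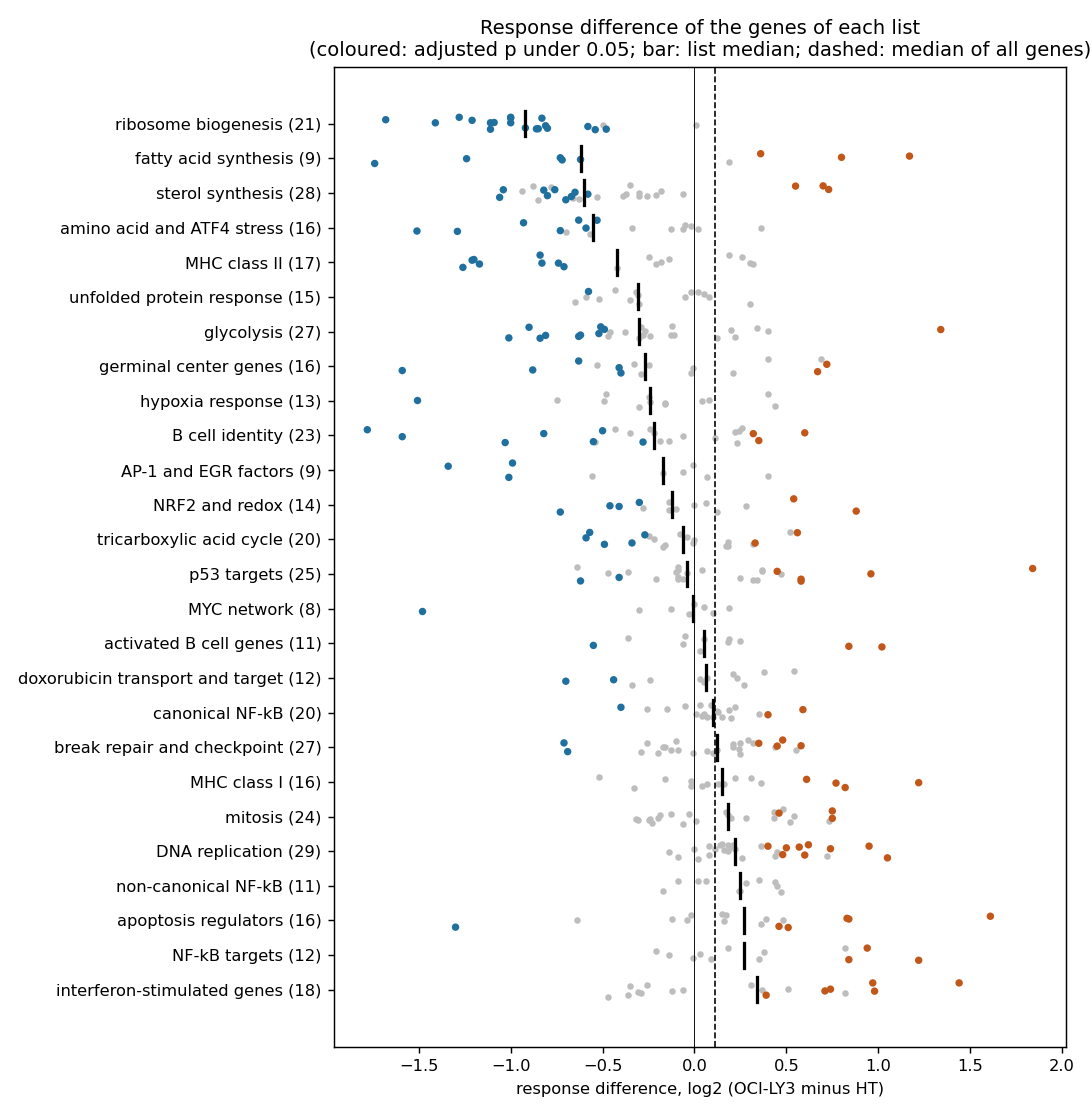
Response difference (log2, OCI-LY3 minus HT) of each tested gene of the 26 lists with at least 5 tested genes (number in brackets); coloured points passed, short bars mark list medians and the dashed line the median of all genes, 0.11. List medians run from -0.92 for ribosome biogenesis to 0.34 for interferon-stimulated genes.

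Several of the largest differences lie outside these lists. PRR15L had 0.287, 0.246 and 0.246 FPKM in treated OCI-LY3 and 0.175, 0.249 and 0.103 untreated, and in HT it fell to 4.17, 3.58 and 6.34 against 21.7, 16.8 and 27.3 untreated (2.11 ± 0.26, limma adjusted p = 0.00051). CDH24, a cadherin, had 12.9, 11.2 and 11 FPKM in treated OCI-LY3 against 0.438, 0.708 and 0.72 untreated, and 1.23, 1 and 1.05 in treated HT against 0.0735, 0.165 and 0.0521 untreated. It rose in both lines; the difference of 2.04 ± 0.14 (limma, adjusted p = 5.8e-05) was 0.69 and did not pass on recovered reads (adjusted p = 0.3). ATN1, the corepressor atrophin 1, rose in OCI-LY3 to 5.85, 4.59 and 5.54 FPKM against 0.792, 0.97 and 1.36 untreated, and had 37.3, 43.8 and 34.7 in treated HT against 52.2, 49.8 and 43.8 untreated (1.96 ± 0.18, limma adjusted p = 0.000162). ATN1 starts at 6924463 on chromosome 12, just past the end of ENO2 at 6923698 on the same strand.

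Some genes moved in opposite directions. ID2, an inhibitor of basic helix-loop-helix factors (chromosome 2, 8678845 to 8684453, plus strand), had 6.72, 6.47 and 7.48 FPKM in treated OCI-LY3 against 2.12, 2.74 and 2.37 untreated, and 18.2, 16 and 18.1 in treated HT against 27.0, 26.9 and 32.9 untreated. It rose in OCI-LY3 and fell in HT, with no overlap (1.91 ± 0.14, limma adjusted p = 5.81e-05). IL10RA, a chain of the interleukin-10 receptor, had 3.05, 2.80 and 3.13 FPKM in treated OCI-LY3 against 1.01, 1.56 and 1.19 untreated, and 29.5, 34.5 and 29.9 in treated HT against 54.3, 52.2 and 54.8 untreated (1.6 ± 0.13, limma adjusted p = 0.000118). SYT11 and the tetraspanin gene CD9 also rose in OCI-LY3 and fell in HT, and CD9 had at most 0.174 FPKM in untreated OCI-LY3. Going the other way, ABLIM1, an actin-binding protein, fell in OCI-LY3 by 1.03 and rose in HT by 0.91 (-1.94 ± 0.31, limma adjusted p = 0.00184), and HTR3A, a serotonin receptor subunit, fell by 0.79 and rose by 0.88 (-1.67 ± 0.33). The HT groups of HTR3A overlap, at 9.09, 7.17 and 3.96 FPKM treated against 4.26, 2.59 and 2.51 untreated. CYBB, the core of the phagocyte NADPH oxidase, and EVI2B, a leukocyte membrane protein, also fell in OCI-LY3 and rose in HT, with differences of -1.93 ± 0.26 and -1.87 ± 0.20. Over all 15138 genes the gap between the lines was narrower after treatment for 53.8%, against 58.1% of the genes with a higher and 45.1% of those with a lower response in OCI-LY3.

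Of the named genes DDN, dendrin, had the lowest difference, with 2.43, 2.76 and 2.87 FPKM in treated OCI-LY3 against 16, 17.4 and 18.1 untreated, and overlapping HT groups at 4.63, 6.11 and 3.30 against 4.07, 3.97 and 3.13 (-2.54 ± 0.22, limma adjusted p = 0.000144). On the opposite strand DDN overlaps an antisense gene that had the lowest difference of all genes tested, -2.91. Among the higher genes, VAMP1, a vesicle protein, rose in OCI-LY3 by 1.15 and fell in HT by 0.58 (1.74 ± 0.20), and ENHO, which encodes the peptide adropin, rose in OCI-LY3 by 2.34 (1.73 ± 0.40). PPDPF had 138, 65.4 and 108 FPKM in treated OCI-LY3 against 18.0, 19.5 and 39.4 untreated (1.74 ± 0.50, limma adjusted p = 0.0256), and did not pass without OCI-LY3 untreated 1 or 2, OCI-LY3 doxorubicin 1 or 3, HT untreated 1 or 2, or HT doxorubicin 2 or 3 (adjusted p up to 0.0638).

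Markers of other cell types were few but not still. Of 10 T and NK cell markers 3 could be tested, and the summed level of all 10 ran from 5.66 to 9.11 FPKM in treated OCI-LY3, 5.38 to 6.18 untreated, 13.3 to 15.1 in treated HT and 4.10 to 6.03 untreated. TRAC, the T cell receptor alpha constant gene, had 3.61, 3.19 and 4.89 FPKM in treated OCI-LY3 against 3.71, 4.57 and 4.96 untreated, which overlap. In treated HT it had 9.93, 9.84 and 12.2 against 2.86, 4.73 and 3.26 untreated (-1.50 ± 0.24, limma adjusted p = 0.00159). NKG7 averaged 2.25 FPKM in treated and 0.846 in untreated OCI-LY3, and 1.89 and 0.465 in HT. CD4 averaged 1.31 FPKM in treated and 0.679 in untreated HT, and 0.175 and 0.0111 in OCI-LY3. Neither NKG7 nor CD4 passed the difference. CD3E averaged 1.02 FPKM in treated and 0.455 in untreated OCI-LY3, and at most 0.049 in HT. The remaining markers averaged at most 0.0672 FPKM in any group, and CD3D was at 0 FPKM in both OCI-LY3 groups and in untreated HT. The 10 myeloid markers summed to 0.31 to 0.859 FPKM in treated OCI-LY3, 0.101 to 0.205 untreated, 8.39 to 11.9 in treated HT and 8.53 to 9.78 untreated, of which CD33 alone was tested and did not pass. The 11 stromal, epithelial and endothelial markers summed to 1.92 to 3.14 FPKM in treated OCI-LY3, 3.80 to 6.34 untreated, and at most 0.25 in HT. DCN, decorin of connective tissue, fell in OCI-LY3 to 1.35, 0.99 and 0.971 FPKM against 4.40, 4.02 and 3.17 untreated, and had at most 0.0497 FPKM in HT. On recovered reads its difference did not pass (adjusted p = 0.182). The part of these markers in the differences above was not tested.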

How the data were processed

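The samples are 12 RNA-seq libraries of 2 cell lines. Per the labels' protocols, polyadenylated RNA was made into libraries with a directional kit. The submitters' processing notes name Trimmomatic, STAR, featureCounts and hg38; no source used here gives versions, the annotation or the strand setting. The deposited values are FPKM, computed by the authors per gene. Gene lengths from GENCODE 29 turned 100.0% of values above 0, over 39344 genes, into whole reads within 0.01 read. For 9654 tested genes with other lengths, the length was solved from the values. Genes reaching 1 FPKM in 3 or more of the 12 libraries were fitted as log2(FPKM + 1), which understates changes of low genes, with limma 3.58.1 in R 4.3.3 (eBayes with trend, 8 residual degrees of freedom, two-sided, Benjamini-Hochberg over 15138 genes, threshold 0.05). The scripts were tested on simulated data. The members and lists were chosen with earlier results of these data known, and the lists are described by counts and medians without a test. Named genes are the 10 largest called differences each way (mean FPKM of at least 10 in a group, same sign without each library), 4 genes per opposite class, the 3 called genes of lowest adjusted p per list and a fixed set; other genes named, such as BOP1, WDR43, ISG20, PAX5 and IFIT1, were chosen after their values were seen. Positions are those of GENCODE 29. Alternatives were other pseudocounts, filters, scalings, replicate blocks, 24 libraries, voom on recovered reads and leaving out libraries. The second deposited table, of an acquired-resistance experiment, was not used here, and a few named genes are not reported here.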

Additional observations from a re-analysis of the deposited data

Results flagged for a closer look

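These are the named genes whose responses differed between the lines, by limma's test of the difference itself. The effect given is the response in OCI-LY3 minus that in HT (log2, limma, adjusted p below 0.05). It was higher in OCI-LY3 for 38 genes and lower for 48. Among the higher ones it was 2.11 for PRR15L, 2.04 for CDH24, 1.96 for ATN1, 1.91 for ID2, 1.84 for CDKN1A, 1.74 for PPDPF, 1.74 for VAMP1, 1.73 for ENHO, 1.61 for BAD and 1.6 for IL10RA. Further values were 1.59 for SYT11, 1.44 for STAT2, 1.34 for ENO2, 1.3 for CD9, 1.22 for PLAU, 1.22 for PSMB9, 1.17 for FADS2, 1.02 for PIM1, 0.98 for IFI35 and 0.96 for FDXR. Smaller ones were 0.94 for TRAF1, 0.84 for BCL2A1, 0.84 for BATF, 0.83 for BCL2L1, 0.82 for TAP1, 0.75 for FOXM1, 0.75 for KIF2C and 0.74 for LIG1. The smallest were 0.74 for BST2, 0.7 for SCAP, 0.61 for ERAP1, 0.59 for IRAK4, 0.54 for FTH1, 0.5 for CDC45, 0.48 for BRCA1, 0.46 for KIF11, 0.45 for TP53I3 and 0.4 for CYLD.

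Among the lower ones it was -2.54 for DDN, -1.94 for ABLIM1, -1.93 for CYBB, -1.87 for EVI2B, -1.78 for MS4A1, -1.74 for FASN, -1.7 for TNFRSF17, -1.68 for DDX21, -1.67 for HTR3A and -1.59 for RGS13. Next came -1.59 for CD22, -1.51 for DDIT4, -1.5 for TRAC, -1.48 for MYC, -1.34 for IER2, -1.3 for BCL2, -1.29 for PSAT1, -1.21 for HLA-DPA1, -1.21 for DCN and -1.2 for HLA-DQA1. Then followed -1.04 for DHCR7, -1.01 for HK2, -1.01 for FOSB, -0.99 for EGR1, -0.93 for SLC7A5, -0.88 for S1PR2, -0.85 for NOP16, -0.84 for CD74, -0.82 for FCRLA and -0.81 for LDHA. Smaller drops were -0.8 for NPM1, -0.8 for HMGCS1, -0.73 for SLC7A11, -0.72 for ACLY, -0.71 for LIG4, -0.7 for TOP2B, -0.69 for XRCC4, -0.63 for TRIB3 and -0.63 for BCL6. The smallest were -0.59 for SDHB, -0.58 for SC5D, -0.58 for XBP1, -0.57 for IDH3A, -0.55 for CYB5R2, -0.51 for PFKM, -0.49 for CS, -0.44 for ABCC4 and -0.4 for NFKB1. Groups of 3 libraries are too small to test a library for standing apart.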

How the results depend on the processing

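The main counts were 2639 genes with a higher and 1216 with a lower response in OCI-LY3. Median-of-ratios scaling gave 1698 and 2025, quantile normalization 1599 and 1544. Leaving out both OCI-LY3 libraries tagged L5, chosen after seeing the data, gave 1634 and 650, with fewer samples. Genes that rose in OCI-LY3 and fell in HT numbered 83, against 51 without a filter on low genes, 128 with 24 libraries and 39 without the L5 pair. Genes that fell in OCI-LY3 and rose in HT numbered 80, against 49, 127 and 45 under those settings and 131 with median-of-ratios scaling. A filter at FPKM 5, which tests fewer genes, left 5664 genes in the doxorubicin response in OCI-LY3, against 8550. Leaving out 1 library at a time gave 1995 to 2587 higher and 929 to 1227 lower genes, 7454 to 8622 genes in the doxorubicin response in OCI-LY3 and 3019 to 4652 in the doxorubicin response in HT. The opposite classes ranged from 42 to 92 and from 42 to 87. The first class fell to 42 without HT untreated 1 or HT doxorubicin 1, 52 without HT untreated 2 and 53 without HT doxorubicin 3. The second fell to 42 without HT untreated 1 and 53 without HT untreated 2 or HT doxorubicin 1.

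Libraries of one number share a prefix of the library name in both lines, whose meaning the labels do not give. Deviations of same-numbered treated and untreated libraries correlated at -0.019, 0.099 and 0.397 in OCI-LY3 and at 0.191, 0.357 and 0.385 in HT. Every HT library correlated best with its own number, and in OCI-LY3 the libraries numbered 3 did. Pairing was thus not shown for OCI-LY3, and the fit without a block was kept. With the replicate block within each line, 3284 genes were higher and 1544 lower, and the opposite classes held 131 and 142 genes. A replicate block shared by both lines gave 3048 and 1424. NFKB2 and INSIG1 passed with the block within each line (adjusted p = 0.02 and 0.0172) and with the shared block (adjusted p = 0.0384 and 0.00993), and no named gene lost its call under either. BCL2A1 turned to -0.0 with a pseudocount of 0.1 and to -0.58 on recovered reads. The cause of these changes was not tested. Of 102 named genes tested, 76 kept their direction and side of the threshold in all of the 23 alternatives that tested them. The filter at FPKM 5 left some named genes untested: 93 stayed the same there and 1 gained a call. On recovered reads, compared without the added 1 FPKM, CDH24, PLAU, FADS2, BATF, CYB5R2 and DCN no longer passed, and the part of depth in this was not tested.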
